A study of Mus musculus with 20 samples.

Results

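The genes described here are the heat shock transcription factor gene Hsf1 and 9 genes of cytosolic chaperones: Hspa1a, Hspa1b, Hspa8, Hspa4l, Hsph1, Hsp90aa1, Dnaja1, Dnajb1 and Hspb1. They were chosen by name, and a gene was taken as measured where the platform annotation gives at least 1 probe set that gene's symbol and no other. Of the 10 genes, 9 were measured, through 27 of the 34945 probe sets with 1 symbol, and Hsf1, which the gene table used here names for 0 probe sets, alone or among several symbols, was not analysed. They stand among 18193 measured genes. Liver RNA came from male C57BL/6J mice, 8 weeks old, that had eaten a diet with 45 kcal% fat for 4 weeks and were killed after a fast of 16 h. The 10 HFD mice had only that diet, and for the 10 MSXH mice it carried 0.02% of an extract of maple syrup, which the labels call maple syrup extract high. Total RNA was labelled with biotin and measured on Affymetrix 3' arrays, 1 array per mouse. Groups on a low-fat diet and on a larger share of the extract were not analysed here.

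Cytosolic chaperones bind unfolded or newly made proteins and help them reach or regain their folded state. HSP70 proteins (Hspa1a, Hspa1b, Hspa8) do this in cycles of ATP hydrolysis that J proteins (Dnaja1, Dnajb1) start and nucleotide exchange factors such as Hsph1 end, HSP90 (Hsp90aa1) acts later on client proteins such as kinases and steroid receptors, and small heat shock proteins (Hspb1) hold unfolded proteins without ATP. HSF1 is held inactive by chaperones, forms trimers when unfolded proteins draw these away, and then binds inverted repeats of the bases GAA, the heat shock elements, in front of chaperone genes. In the liver, chaperone transcripts are known to follow body temperature, feeding and the time of day.

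RefSeq's promoter table (GRCm38.p6, 250 bases before and 50 after each start) had entries for 7 of the 10 genes, and none for Hsf1, Hspa8 or Hsp90aa1. It was searched for the 2-unit forms of the heat shock element, GAANNTTC and TTCNNGAA, and for the 3-unit forms, GAANNTTC followed by NNGAA and TTCNNGAA followed by NNTTC. The 2-unit forms read the same on both strands, the 3-unit forms are each other's reverse complement, and each 3-unit form holds both 2-unit forms. The stretches in front of the 5 genes with a match are shown because they are what these genes share in sequence besides their function. Each is printed 5' to 3' on the gene's strand, with the match in capitals.
Hspa1a: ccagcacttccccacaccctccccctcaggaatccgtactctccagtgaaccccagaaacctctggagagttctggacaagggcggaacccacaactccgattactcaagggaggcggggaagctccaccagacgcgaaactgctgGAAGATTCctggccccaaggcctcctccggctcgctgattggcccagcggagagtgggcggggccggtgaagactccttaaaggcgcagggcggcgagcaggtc
Hspa1b: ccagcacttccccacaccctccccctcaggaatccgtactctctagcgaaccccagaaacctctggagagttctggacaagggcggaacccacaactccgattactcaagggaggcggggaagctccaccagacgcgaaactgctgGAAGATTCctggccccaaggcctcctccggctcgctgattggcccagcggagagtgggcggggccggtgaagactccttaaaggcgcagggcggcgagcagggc
Hsph1: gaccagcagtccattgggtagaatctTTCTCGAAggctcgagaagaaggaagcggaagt
Dnaja1: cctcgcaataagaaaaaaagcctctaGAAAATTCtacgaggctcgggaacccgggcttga
Hspb1: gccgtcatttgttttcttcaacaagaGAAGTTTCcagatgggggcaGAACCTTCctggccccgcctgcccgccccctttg

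The Hspa1a stretch is chr17:34972157-34972406 on the minus strand and the Hspa1b stretch chr17:34959239-34959488, also on the minus strand. The 250 bases before the starts of these neighbouring paralogs were identical at 247 positions, and in both the match lay 104 to 97 bases before the start. The Hsph1 stretch is chr5:149636337-149636395 on the minus strand, the Dnaja1 stretch chr4:40722318-40722377 on the plus strand, and the Hspb1 stretch chr5:135887776-135887855 on the plus strand. Hspb1 held 2 matches, 117 to 110 and 97 to 90 bases before its start. A 2-unit form was found for 5 of the 7 genes (71.4%) and for 3932 of 27025 genes in the table (14.5%). Hspa1a and Hspa1b, nearly the same sequence here, count as 2 of these 5. By promoter it was 6 of 11 (54.5%) and 4218 of 32851 (12.8%), with the same Hsph1 site counted in 2 promoters. A 3-unit form was found for 0 of the 7 and for 0.514% of all genes. Hspa4l and Dnajb1 had no match, which says only that these letters are not in this window. A match is a description of the sequence and was not tied to any measured binding.

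The values are read as log2 levels and lay between 5.17 and 15.01, but their spread between mice is compressed. The median gene had an SD of 0.0121 thousandths of a log2 unit over the 20 arrays. Values below are therefore deviations from a probe set's mean over the 20 arrays, in thousandths of a log2 unit, and a difference between diets is standardized (the MSXH mean less the HFD mean, in units of the pooled SD within a diet), with a 95% confidence interval, and is not a fold of RNA. Hepatocyte markers stood high, with Alb at 14.7 above 99.995% of genes. The mean of 12 skeletal muscle genes stood at 8.18 in MSXH 4 and 7.59 in MSXH 6 against at most 6.45 in the other 18 mice. Where leaving out these 2 mice turns a chaperone gene's difference or moves it by over 1.5 times, both values are given. The RNA is of bulk liver, so fewer cells of a type and less RNA per cell cannot be told apart.

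The first question is whether the extract altered these genes in mice on the high-fat diet. None of the 9 measured chaperone genes passed the test: by limma with the Benjamini-Hochberg adjustment over 18193 genes, 0 of 9 had an adjusted p under 0.05, and 0 of 9 had an unadjusted p under 0.05. Over all genes, 0 of 18193 (0%) passed the adjusted threshold and 1982 (10.9%) the unadjusted one, and an exact rank sum test called 4 genes, none of them a chaperone gene described here. Of the 9 genes, 3 had a higher mean in MSXH (Hspa1a, Hspa4l and Hspb1) and 6 a lower one, where 54.7% of all genes had a higher mean. The median standardized difference of the 9 was -0.0368, beside 0.0669 over all genes.

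Hspa1a and Hspa1b encode the HSP70 proteins made after stress, and their transcripts are near copies, so a probe set of one may also take up RNA of the other. The only Hspa1a probe set had a mean level of 6.696, near the array medians (6.5216 to 6.5226), against 11.1 for the brightest of Hspa1b. Hspa1a lay between -5.34 and 4.69 thousandths in HFD (median -0.629) and between -5.80 and 3.57 in MSXH (median 0.165). HFD 7 and MSXH 8 were lowest, HFD 3 and MSXH 9 highest, and the groups overlapped nearly throughout. The standardized difference was 0.0795 (interval -0.799 to 0.955). It was 0.159 without MSXH 4 and 6 and ran from -0.126 to 0.338 when 1 mouse was left out, so it had no settled sign. Hspa1b lay between -4.40 and 2.53 thousandths in HFD (median 1.496) and between -3.17 and 3.37 in MSXH (median 0.223). HFD 2 was lowest and MSXH 7 highest, with full overlap, and the standardized difference was -0.147 (-1.02 to 0.733), or -0.0323 without MSXH 4 and 6. The other probe sets of Hspa1b followed the same mice, with r = 0.989 and r = 0.984 to the first over the 20 mice.

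Hspa8 encodes HSC70, the HSP70 that cells make without stress. Its brightest probe set lay between -0.00964 and 0.00944 thousandths in HFD (median 0.00294) and between -0.0156 and 0.00905 in MSXH (median -0.00126). HFD 2 and MSXH 6 were lowest, HFD 10 and MSXH 9 highest, and the groups overlapped. The standardized difference was -0.555 (-1.44 to 0.348), with an adjusted limma p of 0.679. A spread of this size is smaller than that of most genes: 32.6% of genes had a smaller SD. The dimmest Hspa8 probe set, 1431182_at, behaved differently from the others. Its SD was 32.3 thousandths, and MSXH 6, 8 and 10 stood at 6.327, 6.331 and 6.341 while the other 17 mice stood at 6.398 or above. Its standardized difference was -0.697 (-1.59 to 0.217), and its r with the brightest probe set was 0.189, against 0.954 and 0.776 for the other probe sets of the gene.

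Hspa4l and Hsph1 encode proteins of the HSP110 family, which release ADP from HSP70. Hspa4l lay between -1.52 and 0.923 thousandths in HFD (median -0.268) and between -1.63 and 2.06 in MSXH (median 0.382). MSXH 7 stood above every other mouse and MSXH 1 below every other, so the groups overlapped although, of the 100 ways to set an MSXH mouse beside an HFD mouse, the MSXH mouse was the higher in 70. The standardized difference, 0.652 (-0.259 to 1.54), was the highest of the 9 genes and did not pass (adjusted limma p = 0.614). All 5 Hspa4l probe sets had a higher mean in MSXH, with standardized differences from 0.361 to 0.993. In the fit over 34945 probe sets, 0 of the 27 chaperone probe sets passed the adjusted threshold, as 0 of all probe sets did, and 1 of 27 had an unadjusted p under 0.05, where 10.7% of all probe sets did. That probe set was 1439093_at of Hspa4l, at 0.993 (0.0469 to 1.91), with an unadjusted limma p of 0.0355, an adjusted p of 0.426 and MSXH the higher in 77 of 100 pairs.

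Hsph1 lay between -1.41 and 0.586 thousandths in HFD (median 0.152) and between -1.12 and 1.02 in MSXH (median 0.112). HFD 2 and MSXH 6 were lowest, MSXH 9 was highest, and the standardized difference was -0.0276 (-0.904 to 0.849). Without MSXH 4 and 6 it was 0.0868, on the other side of 0. It was -0.511 after quantile normalization and -0.239 centred on the array medians. The other Hsph1 probe set, 1423566_a_at, gave -0.140, and none of these passed.

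Hsp90aa1 encodes the stress-responsive HSP90 alpha. It lay between -0.321 and 0.200 thousandths in HFD (median 0.0444) and between -0.286 and 0.181 in MSXH (median 0.0501). HFD 2 and MSXH 6 were lowest, HFD 3 and MSXH 10 highest, and the groups overlapped throughout. The standardized difference was -0.0368 (-0.913 to 0.840) with all mice and 0.142 without MSXH 4 and 6. It was -0.543 centred on the array medians, -0.447 after quantile normalization and -0.426 with the probe sets averaged, none of which passed. Of its 4 other probe sets, 1426645_at followed it closely (r = 0.900), 1437497_a_at and 1441827_x_at less so (0.672 and 0.695), and 1433251_at did not (-0.0269).

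The J proteins encoded by Dnaja1 and Dnajb1 deliver unfolded proteins to HSP70. Dnaja1 lay between -0.0189 and 0.0346 thousandths in HFD (median 0.00753) and between -0.0629 and 0.0487 in MSXH (median -0.00293). MSXH 8 was lowest and MSXH 9 highest of all mice, and HFD lay inside the MSXH range. The standardized difference was -0.446 (-1.33 to 0.449), with an adjusted limma p of 0.749, but it was -0.254 without MSXH 4 and 6 and 0.257 after quantile normalization. Quantile normalization without MSXH 4 and 6 gave 1.33, with an unadjusted limma p of 0.01 and an adjusted p of 0.355. In that setting 2118 of all genes had an unadjusted limma p under 0.05. The other Dnaja1 probe sets, 1460179_at and 1459835_s_at, did not follow the first over the mice (r = 0.0409 and 0.0329), so what is said of Dnaja1 below rests on 1416288_at.

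Dnajb1 lay between -0.514 and 0.585 thousandths in HFD (median -0.0276) and between -0.983 and 0.740 in MSXH (median 0.0787). MSXH 8 was lowest, MSXH 9 highest, HFD again lay inside the MSXH range, and the standardized difference was -0.101 (-0.976 to 0.778). It was -0.378 centred on the array medians, -0.386 with the probe sets averaged and 0.423 after quantile normalization without MSXH 4 and 6. The other probe set, 1416756_at, gave -0.513, and none of these passed.

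Hspb1 encodes HSP27, a small heat shock protein, and varied most between mice of the 9 genes, with an SD of 6.63 thousandths, above that of 99% of genes. It lay between -11.3 and 5.25 thousandths in HFD (median -1.54) and between -10.9 and 12.2 in MSXH (median 2.95). HFD 2 and MSXH 1 were lowest and MSXH 7 and MSXH 4 highest. The standardized difference was 0.623 (-0.285 to 1.51), with an adjusted limma p of 0.631, and its other probe set gave 0.573. The value without MSXH 4 and 6 was 0.409. Over the 20 mice Hspb1 had r = 0.361 with the muscle gene mean and r = 0.563 with the mean of 5 adipocyte genes, which ran from 6.743 to 6.757 in HFD and from 6.741 to 6.757 in MSXH. Cidec had the widest range of these 5 genes, from 6.3825 to 6.4566, so their mean mainly follows Cidec and says little of adipocytes. The part of muscle or adipocyte transcripts in the Hspb1 values was not tested.

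**Figure D1:**
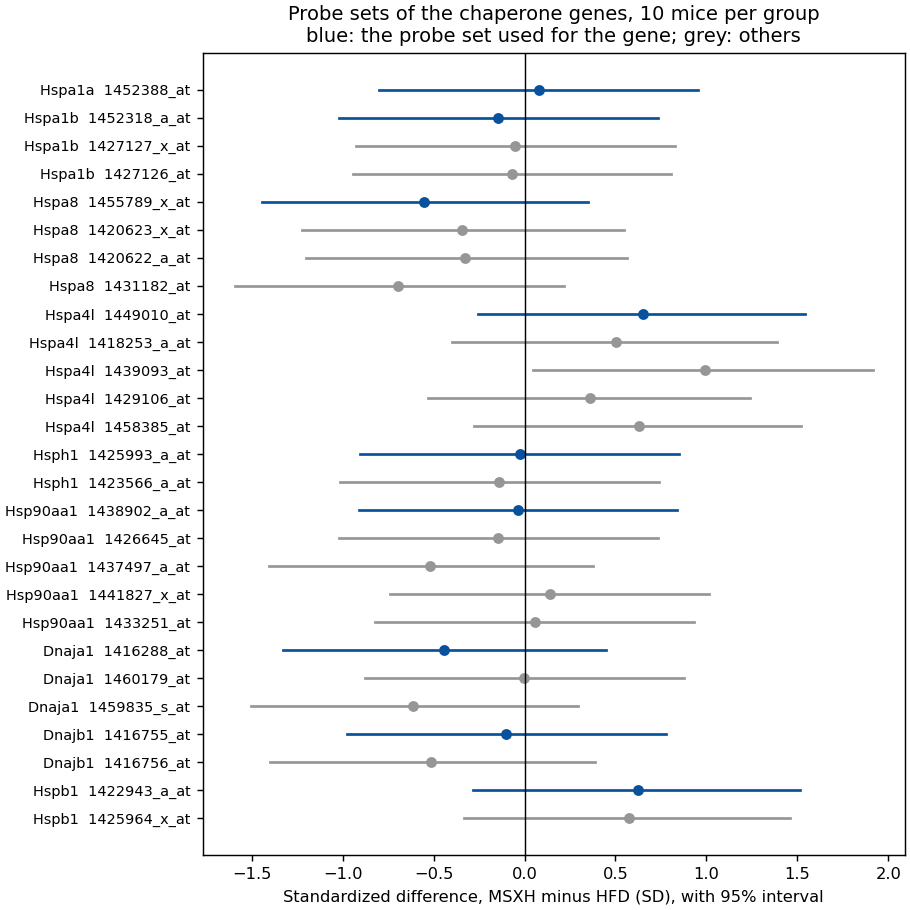
Standardized difference between diets (MSXH minus HFD, in SD, with its 95% interval) for each of the 27 probe sets of the 9 chaperone genes, 10 mice per group, with the probe set used for each gene in blue and the others in grey. Of the 27 intervals, that of Hspa4l 1439093_at (0.0469 to 1.91) is the one that does not reach 0.

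Within each diet the chaperone genes varied together: mice low in 1 of them tended to be low in the others. After the group means were taken off, all 36 pairs of the 9 genes had a positive Pearson r over the 20 mice, with a median of 0.648. By a two-sided permutation test (100000 permutations within groups) and the Benjamini-Hochberg adjustment over the 36 pairs, 29 pairs passed 0.05 by Pearson's r and 30 by Spearman's rho. The lowest r that passed was 0.496, and 3.68% of the 165483528 pairs of all genes reached that value, while the median r of all gene pairs was 0.001. The median r of the 36 pairs was 0.654 in the HFD mice and 0.664 in the MSXH mice. It was 0.597 when each pair was taken without 2 mice, those farthest from its first gene's median.

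The closest pair was Hsph1 with Hsp90aa1 (r = 0.925, rho = 0.839, n = 20 mice, adjusted permutation p = 9e-05 and 0.00036), with r = 0.969 in HFD, 0.895 in MSXH and 0.870 without the 2 farthest mice. It was 0.773 centred on the array medians and -0.0416 after quantile normalization (adjusted permutation p = 1). Hspa8 with Hsph1 had r = 0.917 (rho = 0.892, adjusted permutation p = 9e-05 and 0.00024) and r = 0.878 without the 2 farthest mice. Hspa1b had r = 0.910 with Hsph1 and 0.910 with Hsp90aa1, and r = 0.845 with Hspa8. These 4 genes, an inducible and a constitutive HSP70, an exchange factor and HSP90, had r between 0.845 and 0.925 in every pairing in the values as deposited, and between 0.814 and 0.916 without MSXH 4 and 6. Under other scalings this did not hold for every pairing: centred, Hspa1b with Hspa8 had r = 0.223 and Hspa8 with Hsph1 r = 0.429, and neither passed, and after quantile normalization Hspa1b with Hsp90aa1 had r = 0.141. Centred without MSXH 4 and 6, Hspa8 with Hsp90aa1 had r = 0.0219. Hspa1b with Hsph1 passed in each setting, with r from 0.607 to 0.912.

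The remaining genes were tied less closely. Hspa4l had its highest r with Hspb1 (0.805, rho = 0.732, adjusted permutation p = 0.00036 and 0.0018) and its lowest with Dnaja1 (0.0722, rho = 0.108, adjusted permutation p = 0.782 and 0.654). The 7 pairs that did not pass by Pearson's r were Hspa1a with Hspa4l and with Hspb1, Hspa4l with Dnaja1 and with Dnajb1, and Dnaja1, Dnajb1 and Hspb1 with each other. Dnajb1 with Hspb1 came nearest, at r = 0.499, with an adjusted permutation p of 0.0522 (rho = 0.529, adjusted p = 0.0347). Each gene's r with the mean of the other 8 was 0.947 for Hspa1b, 0.932 for Hsph1, 0.890 for Hsp90aa1 and 0.862 for Hspa8. It was between 0.602 (Dnaja1) and 0.698 (Hspb1) for the other genes.

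The count of pairs that passed depended on the scaling. By Pearson's r it was 28 without MSXH 4 and 6, where Hspa8 with Dnaja1 no longer passed (r = 0.491, adjusted permutation p = 0.0648). It was 17 with each array centred on its median, and 5 of 28 pairs after quantile normalization, where Hspa8 took the same value on every array and gave none. By Spearman's rho, 30 pairs passed in the values as deposited. That count was 23 without MSXH 4 and 6, 19 centred and 7 of 28 after quantile normalization. In those settings 36 of 36, 34 of 36 and 24 of 28 pairs had a positive r. The scalings also tie all genes together: the median r of all gene pairs was 0.002 without MSXH 4 and 6, but 0.994 centred and 0.825 after quantile normalization, so positive values there do not set the chaperone genes apart, and their median r, 0.504 and 0.396, lay below that of all gene pairs. Leaving out 1 mouse gave 24 (without HFD 2) to 31 pairs (without MSXH 10) by Pearson's r.

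**Figure D2:**
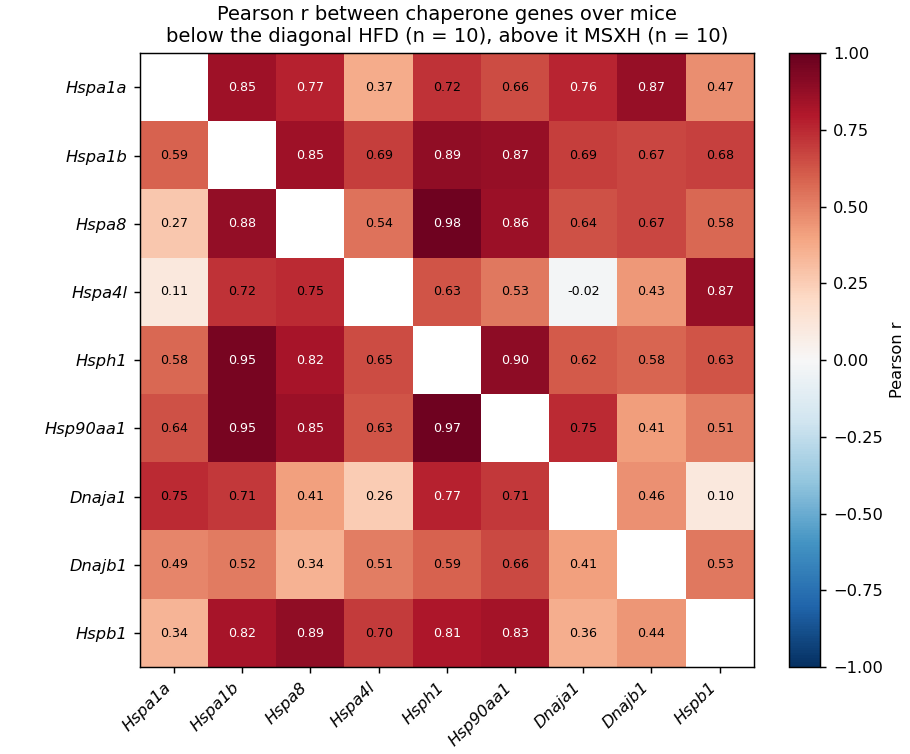
Pearson r between each pair of the 9 chaperone genes, over the 10 HFD mice below the diagonal and the 10 MSXH mice above it, on a colour scale from -1 to 1. All 36 values are positive in HFD and 35 of 36 in MSXH, the exception being Hspa4l with Dnaja1 at -0.0191.

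The mice that carried this pattern can be named from the mean standardized deviation over the 9 genes. In HFD it ran from -1.48 in HFD 2 and -0.932 in HFD 1 to 0.764 in HFD 3. HFD 2 was the lowest HFD mouse in 8 of the 9 genes, all but Hspa1a, and both it and HFD 1 lay under the group mean in 9 of 9. In MSXH the mean deviation was -1.13 in MSXH 1, -1.08 in MSXH 8, -1.06 in MSXH 6 and -0.761 in MSXH 5, and 1.18 in MSXH 9 and 1.08 in MSXH 7. MSXH 9 was the highest MSXH mouse in 5 genes and MSXH 7 in 3, while the lowest was MSXH 8 in 4 genes (Hspa1a, Hspa1b, Dnaja1, Dnajb1), MSXH 6 in 3 (Hspa8, Hsph1, Hsp90aa1) and MSXH 1 in 2 (Hspa4l, Hspb1). The low MSXH mice thus differed by gene, whereas in HFD a single mouse was lowest nearly throughout.

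**Figure D3:**
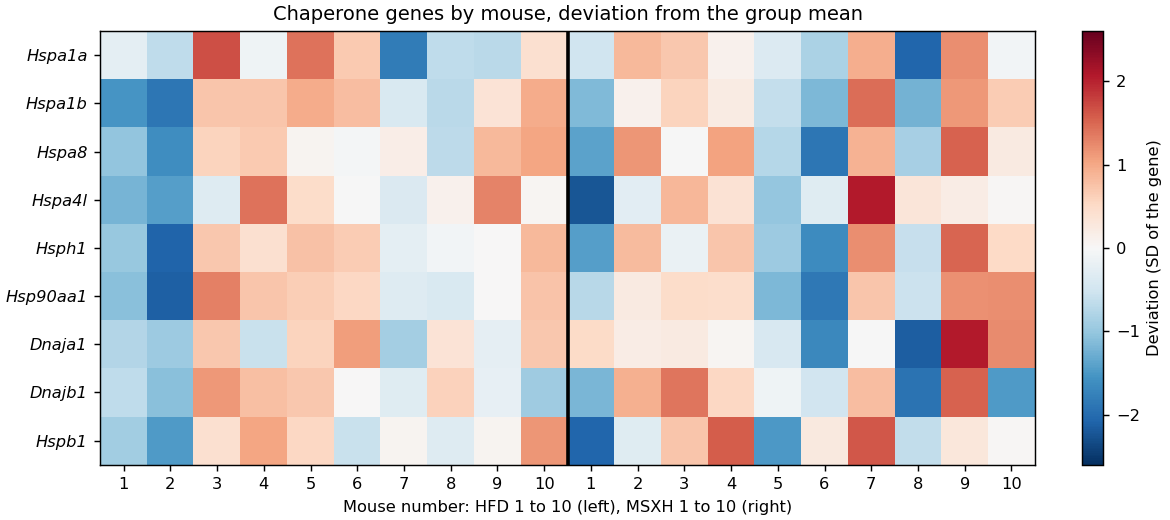
Deviation of each of the 9 chaperone genes from its group mean, in SD of the gene, for the 10 HFD mice (left of the line) and the 10 MSXH mice (right of it), with red for high and blue for low. HFD 1, HFD 2, MSXH 1, MSXH 5, MSXH 6 and MSXH 8 are the low columns, with means from -1.48 to -0.761, and MSXH 9 and MSXH 7 the high ones, at 1.18 and 1.08.

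Measures of the arrays and of other cells were set beside this mean and beside single chaperone genes. Single genes differed, from 0.571 for Hspa4l to -0.497 for Dnaja1 with 7 liver endothelial genes, whose mean ran from 8.462 to 8.463 in HFD and from 8.462 to 8.464 in MSXH. With the adipocyte genes, whose mean mainly follows Cidec, the values were 0.467 for Hspa4l and -0.385 for Dnaja1. The part of other cells in the chaperone values was not tested. The Pearson r of the 9-gene mean over the 20 mice was 0.0674 with the difference between the 3' and 5' control probe sets of Gapdh, -0.0224 with that of Actb, and -0.0422 with the array median. It was -0.0447 with the 12 muscle genes, -0.175 with 7 hepatocyte genes and -0.0672 with 8 macrophage genes. The hepatocyte mean mainly follows Tat (11.41 to 11.486), the endothelial mean Lyve1 (8.1804 to 8.1948) and the macrophage mean Marco (6.9618 to 6.9825). These had the widest range of their lists, so each mean says little of its cell type as a whole. The correlation farthest from 0 among the marker lists was -0.355 with 6 lymphocyte genes, whose mean ran from 6.51393 to 6.51395 in HFD and from 6.51392 to 6.51396 in MSXH. These correlations describe 20 arrays. The labels give no scan or extraction date, and an effect of the order or time at which the mice were killed was not tested.

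Among 18184 genes outside the set, those most like the mean of the 9 chaperone genes over the 20 mice included partners of HSP90 and HSP70 in the values as deposited. The 6 with the highest Pearson r were Ahsa1 (0.911) and Ahsa2 (0.868), which speed the ATP hydrolysis of HSP90, Chordc1 (0.902), an HSP90-binding protein, Med21 (0.882), a subunit of the Mediator complex, Stip1 (0.854), which links HSP70 to HSP90, and Klf11 (0.846), a transcription factor. Since they were picked as the highest of all genes, no test is given. Their standardized differences between diets ran from -0.416 to 0.446. Without MSXH 4 and 6 their r lay between 0.828 and 0.916, beside a median of -0.0253 over all genes outside the set. With each array centred it lay between 0.708 and 0.918, but the median of all those genes was then 0.596. After quantile normalization that median was 0.605, and Ahsa1 (0.329), Ahsa2 (0.425) and Chordc1 (0.416) stood above only 5.38%, 9.36% and 8.76% of genes, while Klf11 (0.788), Med21 (0.744) and Stip1 (0.706) stood above 99.9%, 99.2% and 97.3%. Quantile normalization without MSXH 4 and 6 gave -0.265 for Ahsa1 and 0.622 for Klf11. The likeness of the Ahsa genes and Chordc1 thus depended on the scaling. Of these 6 genes, 0 held a 2-unit or 3-unit heat shock element in the promoter table, where 14.5% of all genes held a 2-unit form. A count over 6 genes cannot set them apart from that share.

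Chordc1 lay between -0.455 (HFD 2) and 0.252 thousandths in HFD (median 0.114), and between -0.465 (MSXH 6) and 0.414 in MSXH (MSXH 9, median 0.0297). Its low and high mice were among those of the chaperone genes, which is part of its being picked for its r with their mean. At the other end, Cirbp, whose RNA-binding protein is known to be made at lowered temperature, had r = -0.826, the second lowest of all. Hnf4aos, a transcript antisense to Hnf4a, was lowest at -0.847. Cirbp lay between -5.83 and 7.79 thousandths in HFD (median -0.784) and between -7.55 and 10.1 in MSXH (median 0.621). HFD 2 and MSXH 6, low in the chaperone genes, were the highest for Cirbp in their groups, and MSXH 9 was its lowest mouse. Cirbp kept a negative r in each setting tried (-0.612 centred, -0.508 after quantile normalization, -0.810 without MSXH 4 and 6), and 0.0055% of genes lay lower centred and 0.506% after quantile normalization, while Hnf4aos turned to 0.195 centred and 0.355 after quantile normalization. Both were named after their values were seen, so the mice at the ends of Cirbp are part of that choice.

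**Figure D4:**
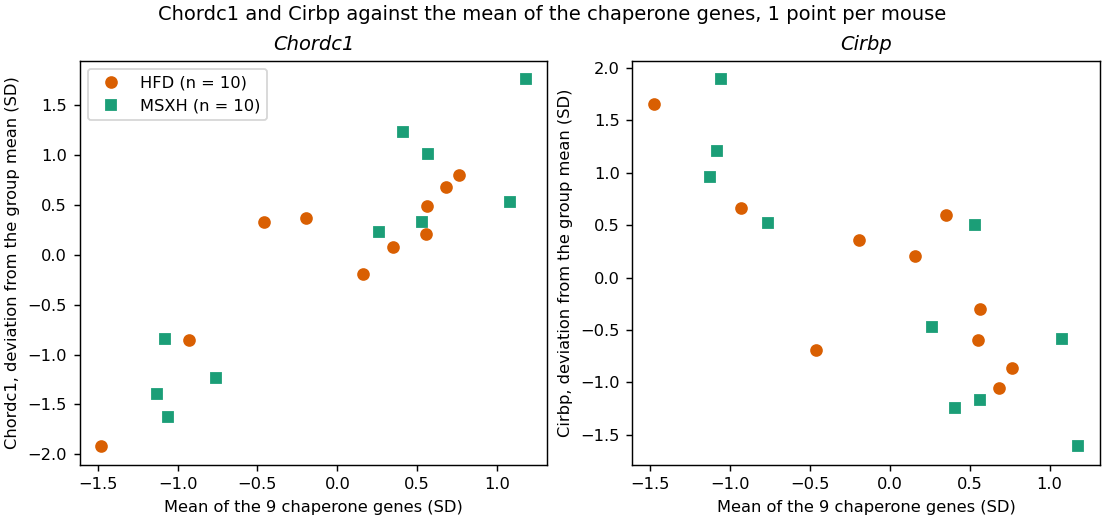
Chordc1 (left) and Cirbp (right) against the mean standardized deviation of the 9 chaperone genes, each in SD from the group mean, with 1 point per mouse (circles HFD, squares MSXH, 10 each). Chordc1 rises with the mean (r = 0.902) and Cirbp falls (r = -0.826), with HFD 2 at the left end of both panels at -1.48.

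For each chaperone gene, the gene outside the set with the highest Pearson r over the 20 mice is given as a description. Hsp90aa1 was nearest to Stip1 (0.911), Hspb1 to Ahsa1 (0.831), and both Hspa8 and Hsph1 to Chordc1 (0.893 and 0.931). Dnajb1 was nearest to Bag3 (0.873), an exchange factor that also binds small heat shock proteins, and Dnaja1 to Cacybp (0.806), which binds S100 proteins and an E3 ubiquitin ligase. Hspa1b was nearest to Med21 (0.873), Hspa4l to the hedgehog receptor Ptch1 (0.887) and Hspa1a to the mitochondrial membrane protein Tmem11 (0.808).

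The wider chaperone network was described from lists of named genes, none of which had a member that passed the adjusted threshold between diets. Over all genes outside the set, 206 of 18184 (1.13%) had r of at least 0.6 with the mean of the 9 genes. Like the 6 genes above, these counts are of the values as deposited. Of 11 measured HSP90 cochaperones 4 did (36.4%), namely Ahsa1, Chordc1, Ahsa2 and the immunophilin Fkbp4 (0.731), and of 9 HSP70 cochaperones 2 did, Stip1 and Bag3 (0.663). Of 8 other cytosolic J proteins 1 did, Dnajb2 (0.831). Of 8 mitochondrial chaperones 2 did, Hspe1 (0.691) and Hspd1 (0.644), which form the mitochondrial chaperonin. The SD of Hspd1 was only 0.000807 thousandths, below the median gene's 0.0121, and that of Hspe1 was 0.0656. Centred without MSXH 4 and 6, r was 0.667 for Hspe1 but 0.201 for Hspd1, beside a median of 0.173 over all genes outside the set. Of 13 genes of the cytosolic chaperonin TRiC and prefoldin 2 did, Cct4 (0.618) and Cct7 (0.602). The SDs of these 2, 0.0082 and 0.00746 thousandths, were also below the median gene's. Centred without MSXH 4 and 6, their r was 0.298 and 0.321. Of the 13 genes 13 were positive, where 46.4% of all genes outside the set were. Their median r was 0.377 beside -0.0231 over all genes. None did among 12 chaperones of the endoplasmic reticulum, although 12 of 12 were positive (0.194 to 0.442), beside the same 46.4%. Within HFD the r of these 12 ran from 0.406 to 0.739, and within MSXH from 0.0853 to 0.295. None reached 0.6 among 7 other small heat shock proteins, 6 other HSP70, HSP110 and HSP90 genes and 5 other heat shock factors and regulators. Cryaa, a lens crystallin, stood lowest at -0.545. Hsp90ab1, Ptges3 and Ppid of these lists have no probe set with 1 symbol here.

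**Figure D5:**
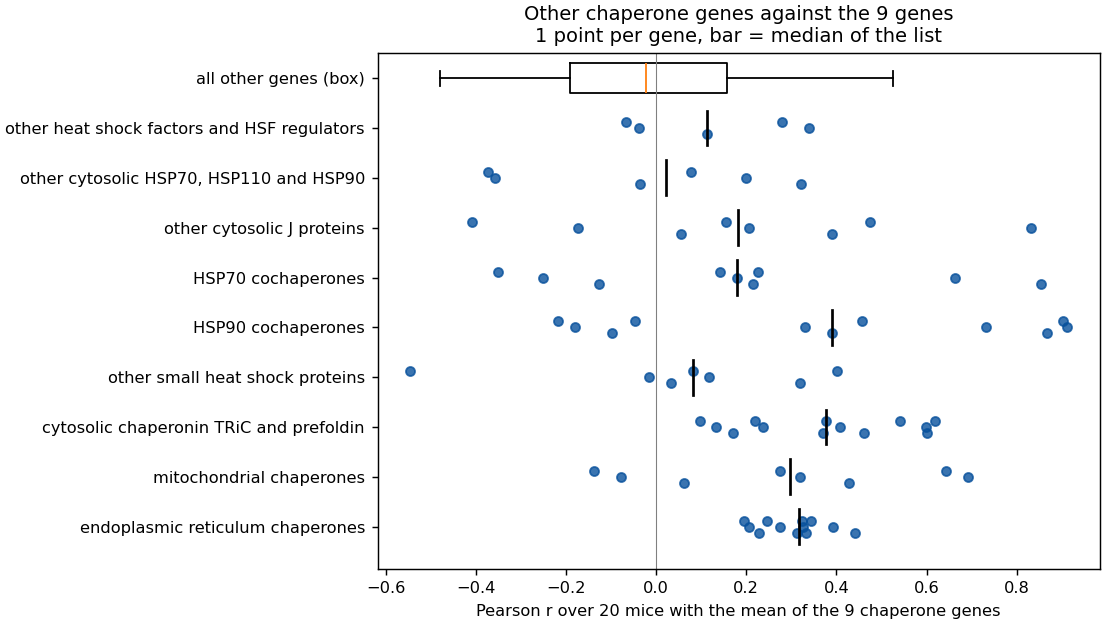
Pearson r over 20 mice between each gene of 9 chaperone lists and the mean of the 9 chaperone genes, with 1 point per gene and a bar at the list's median. The box shows all other genes (median -0.0231, with whiskers that hold the central 95%), and the highest points are Ahsa1 (0.911) and Chordc1 (0.902).

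Between diets, the standardized differences of these lists are given with 10 mice per group. Of the HSP90 cochaperones 5 were higher and 6 lower in MSXH, with 1 at an unadjusted limma p under 0.05, Unc45a, a myosin chaperone (1.04, interval 0.0867 to 1.96, adjusted p = 0.404), and next Ttc4 at 0.591. Unc45a was 0.900 without MSXH 4 and 6, with an unadjusted limma p of 0.0694. Of the small heat shock proteins 6 were higher and 1 lower, with 1 at that p, Hspb3 (0.983, adjusted limma p = 0.426), which was 0.950 without MSXH 4 and 6 with an unadjusted p of 0.0569. Next was Cryab, a small heat shock protein abundant in muscle, at 0.642 with all mice and 0.181 without MSXH 4 and 6, the mice high in muscle genes. Both Unc45a (-0.262 and -0.247) and Hspb3 (-0.585 and -0.705) turned when arrays were centred or quantile normalized. Of the heat shock factors and regulators 2 were higher and 3 lower, with 1 at an unadjusted limma p under 0.05, Hsf5, a testis factor (-0.929, adjusted p = 0.455), and next the factor Hsf2 at -0.525. Hsf5 was -0.647 without MSXH 4 and 6 (unadjusted limma p = 0.186), and its unadjusted p was 0.0741 with the replicate block, 0.135 with arrays centred, 0.136 after quantile normalization and 0.105 by the exact rank sum test.

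The other lists had no gene at an unadjusted limma p under 0.05 with all mice in the values as deposited. With arrays centred, Dnajc7 (-1.02, unadjusted limma p = 0.0262) and Dnajb9 (-0.922, p = 0.0411) fell under it. After quantile normalization Dnajb9 did too (-0.985, unadjusted limma p = 0.0343). Neither gene passed the adjusted threshold in these settings. The 12 endoplasmic reticulum chaperones all had a lower mean in MSXH, from -0.747 for Dnajb9 to -0.248, where 54.7% of all genes had a higher one. Their second smallest p was that of Hsp90b1, the HSP90 of that compartment (-0.676, adjusted limma p = 0.603), which turned to 0.543 after quantile normalization without MSXH 4 and 6. Of the TRiC and prefoldin genes 9 were higher and 4 lower, led by Pfdn5 (0.892, or 1.26 with an unadjusted limma p of 0.024 without MSXH 4 and 6) and Cct2 (0.475), and of the mitochondrial chaperones 2 were higher and 6 lower, led by Grpel1 (-0.494) and Trap1 (0.603). Of the HSP70 cochaperones 4 were higher and 5 lower, led by Bag1 (0.827, or 1.44 with an unadjusted limma p of 0.0328 without MSXH 4 and 6) and St13 (-0.564). With all mice, Pfdn5 turned to -0.623 and Bag1 to -0.641 when arrays were centred. The J proteins stood at 3 and 5, led by Dnajc7 (-0.815) and Dnajb2 (0.412), and the other HSP70, HSP110 and HSP90 genes at 3 and 3, led by Hspa14 (0.735) and Hspa12a (-0.565).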

How the data were processed

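The deposited values, 1 per probe set and array, are taken as log2 levels from their range, 5.17 to 15.01. Their log base, and how arrays were scanned, normalized and summarized, is not given in the sources used here. Per the labels' protocols, the authors labelled 200 ng of total RNA per mouse with biotin. The compressed spread was left as deposited.

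Probe sets were joined to genes through the platform's gene table: of 45101 probe sets, 34945 had 1 symbol and were used, 932 had several, 9211 were not listed and 64 are controls. Where a gene had several (9010 genes), the probe set of highest mean over the 20 arrays stood for it, and nothing was filtered on level. Groups came from the sample titles. The titles call the samples biological replicates, and their numbers only name mice: mice that share a number correlated at -0.265 to 0.165, so no pairs were modelled.

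Diets were compared with limma 3.58.1 in R 4.3.3 (lmFit, eBayes with trend, two-sided, Benjamini-Hochberg over all genes, threshold 0.05). Correlations use deviations from group means, with 100000 permutations within groups (Python 3.11.15, numpy 2.4.6, scipy 1.17.1). The plan named 45 pairs; with Hsf1 unmeasured there were 36. A standardized difference has a noncentral t interval. Scripts were tested on simulated data. Precision is limited by the number of arrays.

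The genes, lists and tests were chosen with earlier results of these data known. Named are all 10 genes with each probe set, the 2 genes of smallest p of each list, the 6 genes most like the mean of the 9, and each gene's nearest gene outside the set. Hnf4aos, Cirbp and list genes named for their r fall outside that rule. Alternatives were quantile normalization, centring on the array median, genes above the median gene, the replicate number as a block, averaging the probe sets of a gene, fitting every probe set, eBayes without trend, array weights, the rank sum test, Spearman's rho, and leaving out each mouse or MSXH 4 and 6. Leaving out each mouse for the pairs, and the scalings of the pairs without MSXH 4 and 6, were added after the data were seen.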

Additional observations from a re-analysis of the deposited data

Results flagged for a closer look

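In the 56 groups of 10 values examined (27 probe sets and the mean of the 9 chaperone genes, in each diet), 3 held a mouse apart from the rest by Dixon's ratio, the gap to the nearest mouse over the whole range, with a critical value of 0.466 for 10 mice. Chance alone gives about 1 in 20 such groups. For Hspa4l probe set 1429106_at, MSXH 7 stood above the other MSXH mice at 0.965 thousandths of a log2 unit from the mean (ratio 0.48). For Dnaja1, HFD 3 stood below the other HFD mice on 1460179_at (-0.112 thousandths, ratio 0.555) and on 1459835_s_at (-0.125 thousandths, ratio 0.494). On the Dnaja1 probe set used above, 1416288_at, HFD 3 was not apart, and its mean over the 9 genes, 0.764, was the highest of the HFD mice.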

How the results depend on the processing

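In 284 fits of the 9 chaperone genes over all alternatives, 0 had an adjusted limma or rank sum p under 0.05, and the smallest was 0.229. Genes called between diets were 4 by the exact rank sum test, 1 when a gene's probe sets were averaged, 0 to 3 with 1 mouse left out, and 0 with the replicate number as a block (1816 at an unadjusted p under 0.05), which changed no call.

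Without 1 mouse, the standardized difference ran from -0.126 to 0.338 for Hspa1a, -0.286 to 0.157 for Hsph1, -0.303 to 0.179 for Hsp90aa1 and -0.28 to 0.118 for Dnajb1. Quantile normalization turned Hspa1a (-0.000692), Dnaja1 (0.257), Hspa14 (-0.384), Dnajb2 (-0.138), Bag1 (-0.349), Unc45a (-0.247), Ttc4 (-0.149), Hspb3 (-0.705), Pfdn5 (-0.805), Cct2 (-0.447) and Trap1 (-0.118). Centring turned Hspa14 (-0.531), Dnajb2 (-0.513), Bag1 (-0.641), Unc45a (-0.262), Ttc4 (-0.653), Hspb3 (-0.585), Pfdn5 (-0.623), Cct2 (-0.638) and Trap1 (-0.658). Averaging a gene's probe sets turned Hspa12a (0.201), Cct2 (-0.0117) and Trap1 (-0.101). Without MSXH 4 and 6, Hsph1 (0.0868, centred 0.0848) and Hsp90aa1 (0.142, centred 0.138) turned, and with quantile normalization Hspa1b (0.076), Dnaja1 (1.33), Dnajb1 (0.423), Hspa12a (0.213), Dnajc7 (0.0546), Hspb3 (-0.266), Pfdn5 (-0.451) and Hsp90b1 (0.543).

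The pairs that passed by Pearson's r, 29 of 36, were 17 centred and 5 of 28 after quantile normalization. They were 24 to 31 without 1 mouse. Without MSXH 4 and 6 they were 19 centred and 9 of 21 after quantile normalization. By Spearman's rho they were then 14 centred and 9 of 21 after quantile normalization. Of all gene pairs, 90.8% centred and 88.5% after quantile normalization reached r = 0.496, the lowest that passed in the values as deposited. Without MSXH 4 and 6 these shares were 71.7% centred and 7.64% after quantile normalization. The median r of the chaperone pairs was then 0.549 and 0.421, beside 0.796 and 0.076 for all gene pairs. Turned pairs were Hspa8 with Hspb1 (-0.31) and Dnaja1 with Hspb1 (-0.302) centred; Hsph1 with Hsp90aa1 (-0.0416), Hsph1 with Dnaja1 (-0.0534), Hsp90aa1 with Hspb1 (-0.282) and Dnaja1 with Hspb1 (-0.316) after quantile normalization. Without MSXH 4 and 6 they were Hspa1a with Hspa8 (-0.213) and Hspa1b with Hspa8 (-0.065) centred, and Hspa1b with Dnaja1 (-0.126), Hspa4l with Dnaja1 (-0.18) and Dnaja1 with Hspb1 (-0.155) after quantile normalization. Array medians ran from 6.5216 to 6.5226, so centring moves every gene by more than the SD of a gene such as Hspa8 (0.00755 thousandths) or Dnaja1 (0.0272 thousandths). The cause of the other changes was not tested. Hspa1a was left out of the genes above the median gene.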
